A study of Danio rerio with 20 samples.

Results

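Annexin family genes were followed in single cells of the zebrafish AGM (aorta-gonad-mesonephros) and CHT (caudal hematopoietic tissue). The 6 genes anxa1a, anxa1b, anxa1c, anxa2a, anxa5b and anxa11b were chosen by name with earlier results of these data known, so their tests are readings from fits over all genes and not independent evidence. Of the 26651 gene IDs in the files, 13 carried a symbol beginning with anxa, and 4 of the 6 listed genes matched a row: anxa1a (ENSDARG00000026726), anxa2a (ENSDARG00000003216), anxa5b (ENSDARG00000016470) and anxa11b (ENSDARG00000002632). anxa1b and anxa1c matched no row and were not analysed here.

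The study sorted cells of dissected, pooled tg(kdrl:mCherry-CAAX/cd41:eGFP) embryos by FACS for kdrl and low cd41 signal, to enrich hematopoietic stem and progenitor cells (HSPCs), and sequenced them with SORT-seq on 20 plates of 384 wells. The 12 AGM plates at 36 hpf held embryos treated with the PI3K inhibitor LY294002 (5 plates, L1 to L5), wild-type controls (4 plates, C1 to C4) or cells of both (3 plates, X1 to X3). Of the CHT plates at 5 dpf, 4 were used here, with LY294002-treated embryos (V1, V2) and wild-type controls (W1, W2), and the other 4 were not analysed here. By the methods, controls received DMSO. Both transgenes mark the sorted cells in all groups. Each group pooled many embryos, so plates of a group are not known to hold separate animals and p-values measure the spread between plates, which may be technical. The methods describe LY294002 treatments that began at the onset of EHT, and do not say until when the embryos of the CHT plates were treated.

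Annexins are proteins that bind phospholipid membranes when calcium is present, through a repeated core domain, and differ in the tail that binds their partners. In mammals, annexin A1 is known from neutrophils and epithelia and for its part in ending inflammation, annexin A2 joins S100A10 to link membranes with actin, annexin A5 binds exposed phosphatidylserine, and annexin A11 binds the calcium sensor ALG-2. Skin epithelium is rich in annexins A1 and A2, so that skin cells or free skin RNA in a sorted well can carry their transcripts.

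Of 6144 wells on these 16 plates, 4759 held at least 1500 UMIs (unique molecular identifiers, each standing for 1 captured transcript) and were taken as cells. Plates held between 1837137 and 8298215 UMIs in all, with a median of 5575 to 15390 UMIs per cell. No cell was identical to another. Clusters were named from marker lists, without any annexin gene, and a class with a plate is given only where it held at least 20 cells. The levels below are CPM (UMIs per 1000000 UMIs of all cells of a class on a plate), and since SORT-seq reads 3′ ends, they carry no gene length. Skin-like cells were almost all on the late AGM plates: between 10 and 105 cells on the plates sorted on days 10 to 12, against 0 to 5 on those of days 1 to 4. The HSPC-like cells of the AGM also scored 1.70 on a list for thrombocyte and erythrocyte progenitors, against 1.52 on the HSPC list. They kept the HSPC name because more markers of the HSPC list were among their top genes. With 7 clusters in place of 5, 59 AGM cells were named erythrocyte-like, a name that no AGM cluster bore with 5. Erythrocyte-list RNA in the HSPC-like cells lay between 113 CPM on X1 and 26380 CPM on L5. The 211 monocyte-like cells of the CHT scored 1.27 on the monocyte list and 0.87 on a myeloid list. That name was not stable. With 7 clusters in place of 5, 54 CHT cells were named monocyte-like and 52 muscle-like, and 110, nearest the myeloid list, stayed unnamed. All wells above the minimum were used, although the labels of the later plates say that the study used a part of their cells.

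anxa1a and anxa2a, whose mammalian counterparts are annexins of epithelia, were high in skin-like cells and, at 36 hpf, in EHT-like cells (endothelial-to-hematopoietic transition). For anxa1a in the AGM, skin-like cells averaged 211 ± 181 CPM (SD, n = 5 plates), EHT-like cells 150 ± 139 CPM (SD, n = 5) and monocyte-like cells 100 ± 46.6 CPM (SD, n = 11), which overlapped. HSPC-like and neutrophil-like cells had lower means, at 23.0 ± 19.2 CPM (SD, n = 12) and 24.8 ± 9.47 CPM (SD, n = 11), and did not differ beyond their spread. HSPC-like plates reached 66.3 CPM and so overlapped the EHT-like and monocyte-like plates, which began at 54.9 and 47.7 CPM. The spread in EHT-like cells rested on C2, with 396 CPM, against 54.9 to 110.5 CPM on the other 4 plates. Monocyte-like cells were higher than EHT-like cells on C1, L1, L2 and X2. They held 143, 132, 176 and 57.4 CPM there, against 101, 89.2, 110.5 and 54.9 CPM. On C2 they held 158 CPM, below the EHT-like cells. EHT-like and skin-like cells had no plate of at least 20 cells in common. Class and sort day thus cannot be told apart between them.

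anxa2a separated the classes of the AGM more sharply. EHT-like cells held 182.6 CPM on the lowest, 648 CPM on the median and 874 CPM on the highest of 5 plates, and skin-like cells between 346 and 450 CPM. HSPC-like cells averaged 6.07 ± 5.56 CPM (SD, n = 12), neutrophil-like cells 45.1 ± 17.7 CPM (SD, n = 11) and monocyte-like cells 59.1 ± 32.2 CPM (SD, n = 11). Among plates of at least 20 cells of a class, every EHT-like and skin-like plate was above every plate of the other classes. Under that minimum, 4 and 5 skin-like cells of X1 and X2 held 107 and 98.8 CPM. Both were below the 112 CPM of monocyte-like cells on L3. The 1 and 10 skin-like cells of L2 and L5 held 1274 and 429 CPM. The shares of cells lay closer together where depth was not set equal. An anxa2a UMI was found in 43.75% of EHT-like, 28.41% of monocyte-like, 32.42% of neutrophil-like and 6.27% of HSPC-like cells. EHT-like cells were shallower than these other classes, with a median of 6102 UMIs. All cells of each class were also thinned to 1500 UMIs, for an equal depth. The shares were then 26.92% in EHT-like, 6.43% in monocyte-like, 6.31% in neutrophil-like and 0.61% in HSPC-like cells, further apart. anxa2a stands in the study's own marker table for EHT, so its level there is not independent of that choice, although it was left out of the naming here.

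anxa5b, whose mammalian counterpart binds phosphatidylserine, was the least abundant listed gene, with 1465 UMIs over all cells against 3470 of anxa1a. It was highest in skin-like cells, with 206 ± 40.2 CPM in the AGM (SD, n = 5). EHT-like cells followed with 39.4 ± 30.8 CPM (SD, n = 5) and monocyte-like cells with 27.7 ± 18.5 CPM (SD, n = 11), and these did not differ beyond their spread. HSPC-like cells held 5.07 ± 3.71 CPM (SD, n = 12).

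anxa11b was as high in neutrophil-like and monocyte-like cells as in skin-like cells. In the AGM it averaged 310 ± 43.1 CPM in neutrophil-like (SD, n = 11), 280 ± 77.5 CPM in EHT-like (SD, n = 5), 262 ± 50.5 CPM in monocyte-like (SD, n = 11) and 246.5 ± 12.0 CPM in skin-like cells (SD, n = 5), which overlapped. HSPC-like cells stood apart at 80.9 ± 16.0 CPM (SD, n = 12). In the CHT it was at 264 ± 62.5 CPM in neutrophil-like (SD, n = 3) and 155 ± 38.1 CPM in monocyte-like cells (SD, n = 4), and at 4.24 ± 1.26 CPM in erythrocyte-like cells (SD, n = 4), where it rested on 3 to 9 UMIs per plate. These levels are a description with no test, since the genes were chosen with results known.

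**Figure D1:**
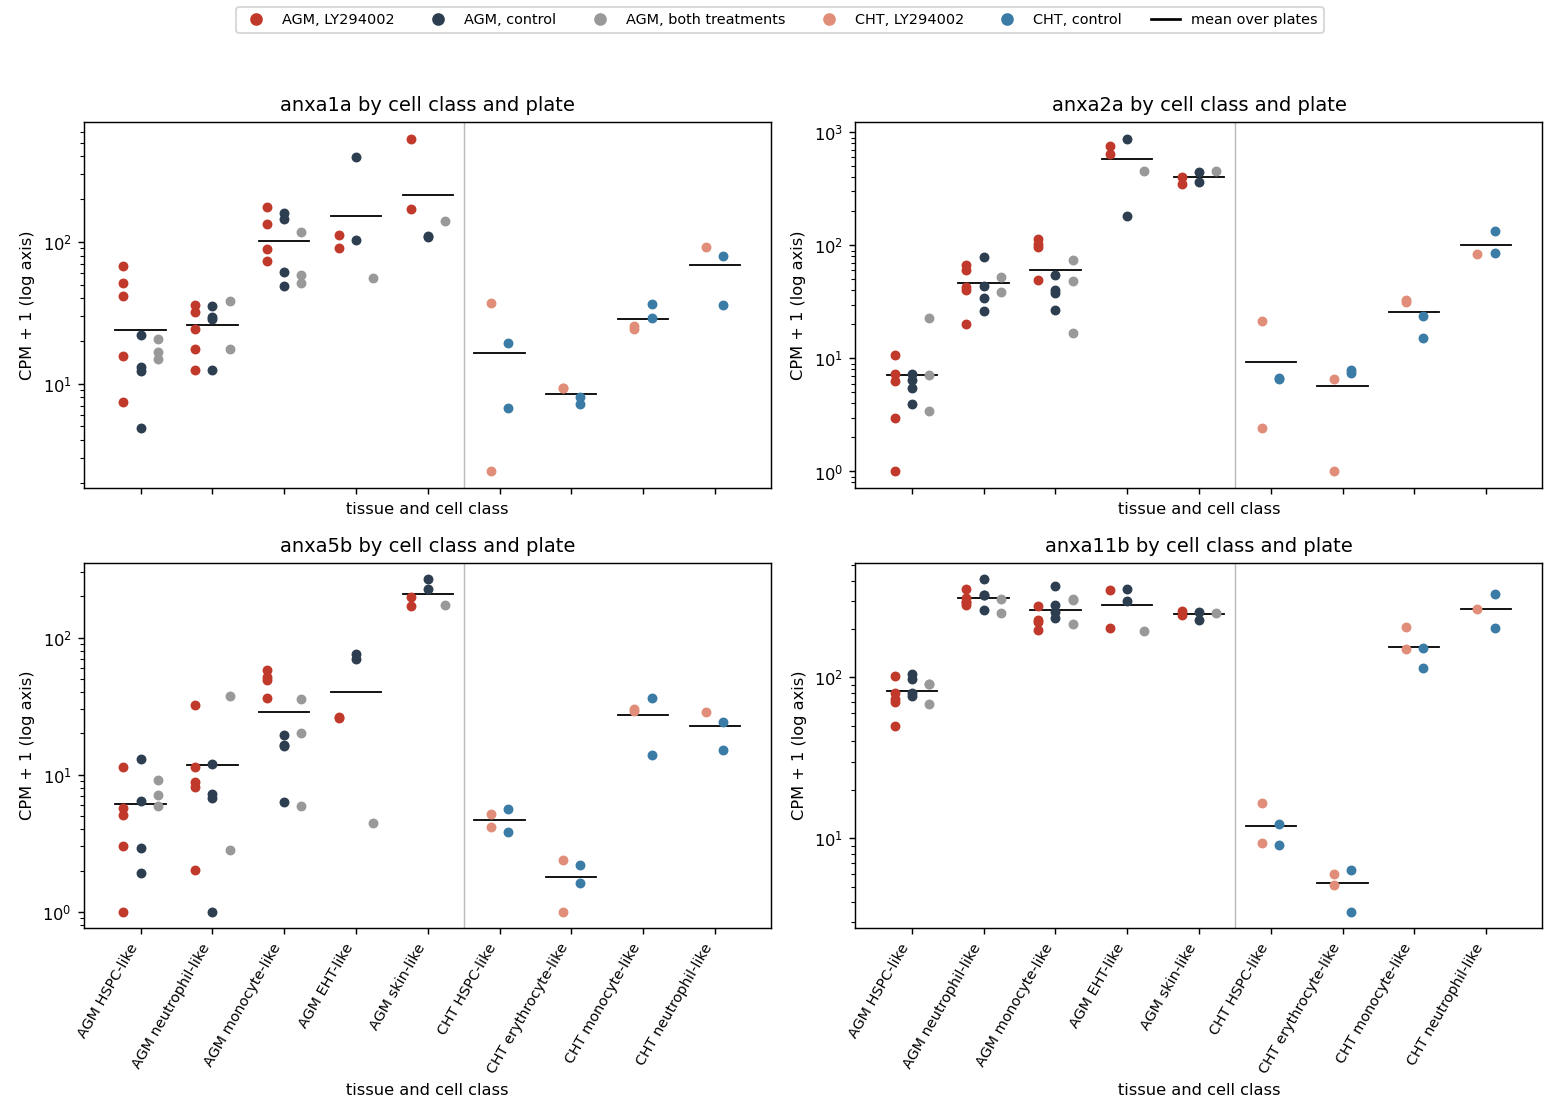
Level of the 4 annexin genes (CPM + 1, log axis) by tissue and cell class; each point is a plate with at least 20 cells of the class, colored by group, and black lines are means over plates. anxa2a was at 182.6 to 874 CPM in EHT-like and 0 to 21.8 CPM in HSPC-like cells of the AGM, and anxa11b was at 48.6 to 103.7 CPM in AGM HSPC-like cells, below the other AGM classes.

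Levels were then set against skin RNA, since a gate on kdrl and cd41 should leave skin cells out and free RNA of such cells can reach other wells. Skin-like cells were 10.4% of AGM cells and held 36.5% of the UMIs of anxa1a, 35.2% of anxa2a, 57.9% of anxa5b and 10.1% of anxa11b. In the CHT they were 4.70% of cells and held 69.1% of the UMIs of anxa1a and 67.4% of anxa2a. These 49 cells scored 1.95 on the skin list and also 1.35 on the EHT list. Skin-like cells of the CHT, with only 8 to 14 cells per plate, held 937 and 646 CPM of anxa1a under LY294002, against 1078 and 960 CPM in controls. The plates did not overlap, but with so few cells they entered no fit and the difference was not tested. For anxa2a the same cells held 473 and 895 CPM under LY294002, against 699 and 821 CPM in controls, which overlapped.

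For each gene, the UMIs per 100 UMIs of the skin list (21 genes found) were taken in skin-like cells, at 0.74 for anxa1a and 0.98 for anxa2a in the AGM and 0.91 and 0.74 in the CHT. If all skin-list UMIs in other cells came with the gene at that ratio, EHT-like cells of the AGM would hold 8.33 CPM of anxa2a, against 543 CPM measured over all of them, which is 1.54%. For anxa1a the same share was 4.59% in EHT-like and 4.30% in monocyte-like cells, so the levels of these classes were far above it. AGM HSPC-like cells, where both genes were low, had shares of 16.3% for anxa1a and 46.3% for anxa2a. The neutrophil-like cells had 30.9% and 24.7%. EHT-like cells numbered at least 20 only on the early plates C1, C2, L1, L2 and X2. For skin-like cells these were the late plates C3, C4, L3, L4 and X3, so the ratio came mostly from other plates. On X1 and X2, 4 and 5 skin-like cells held 49388 and 46350 CPM of the skin list. They held 107 and 98.8 CPM of anxa2a and 620 and 611 CPM of anxa1a. The 65 skin-like cells of X3 held 22972 CPM of the skin list, 450 CPM of anxa2a and 139 CPM of anxa1a. Skin-list UMIs were also found on C1 and L1, which held 0 skin-like cells. There they were at 614 and 665.5 CPM in neutrophil-like and 868 and 669 CPM in EHT-like cells. HSPC-like and monocyte-like cells of these 2 plates held 111 to 155 CPM. Whether the skin-list UMIs of a class came from skin was not tested, so the shares do not measure skin RNA.

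In the CHT the ratio gave a larger share of the low levels. It came to 71.6% of anxa1a and 74.2% of anxa2a in erythrocyte-like cells and to 31.6% and 47.1% in HSPC-like cells. The CHT neutrophil-like cells, where both genes were higher, had 12.9% for anxa1a and 8.54% for anxa2a. For anxa11b the ratio gave at most 3.37% of the level in each AGM class other than skin, 7.35% in CHT HSPC-like cells and 21.3% in CHT erythrocyte-like cells, where it rested on 19 UMIs.

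For anxa5b the ratio was 0.53 in the AGM and 0.13 in the CHT. It gave 38.6% of the level in AGM HSPC-like cells, 48.5% in neutrophil-like, 14.3% in EHT-like and 11.9% in monocyte-like cells. In the CHT it gave 84.4% in erythrocyte-like cells, on 4 UMIs, 17.3% in HSPC-like and 3.80% in monocyte-like cells. All these ratios were pooled over plates that differed. Skin-like cells of L3 held 197 CPM of anxa5b at 24948 CPM of the skin list. Those of L5, only 10 cells, held 8.39 CPM at 92839 CPM.

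Cells without any skin-list UMI were read as well. The 75 such monocyte-like cells of the AGM held 150.3 CPM of anxa1a and 59.4 CPM of anxa2a, and the 29 such EHT-like cells held 181.5 CPM of anxa2a and 212 CPM of anxa11b, but only 15.1 CPM of anxa1a, against 136.6 CPM over all EHT-like cells. anxa2a in these EHT-like cells was thus also below the 543 CPM of the whole class. The 203 such HSPC-like cells held 30.5 CPM of anxa1a, 2.35 CPM of anxa2a and 71.0 CPM of anxa11b. The 25 such neutrophil-like cells held 4.36 CPM of anxa2a, against 42.7 CPM over the class, and 91.8 CPM of anxa1a, against 25.7 CPM, one lower and the other higher than in the class. anxa5b was at 23.0 CPM in the monocyte-like, 0 CPM in the EHT-like, 1.17 CPM in the HSPC-like and 4.36 CPM in the neutrophil-like cells without skin-list UMIs. These are pooled cells with no test, and they were shallower, with a median of 4114 UMIs in EHT-like cells against 6102 UMIs in the whole class. The lowest values rested on very few UMIs, near the floor. Among them were 4.36 CPM in neutrophil-like, 15.1 CPM in EHT-like, and 2.35 and 1.17 CPM in HSPC-like cells. Their differences from the whole class are not established. The part of skin RNA in the levels was not tested beyond these values.

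**Figure D2:**
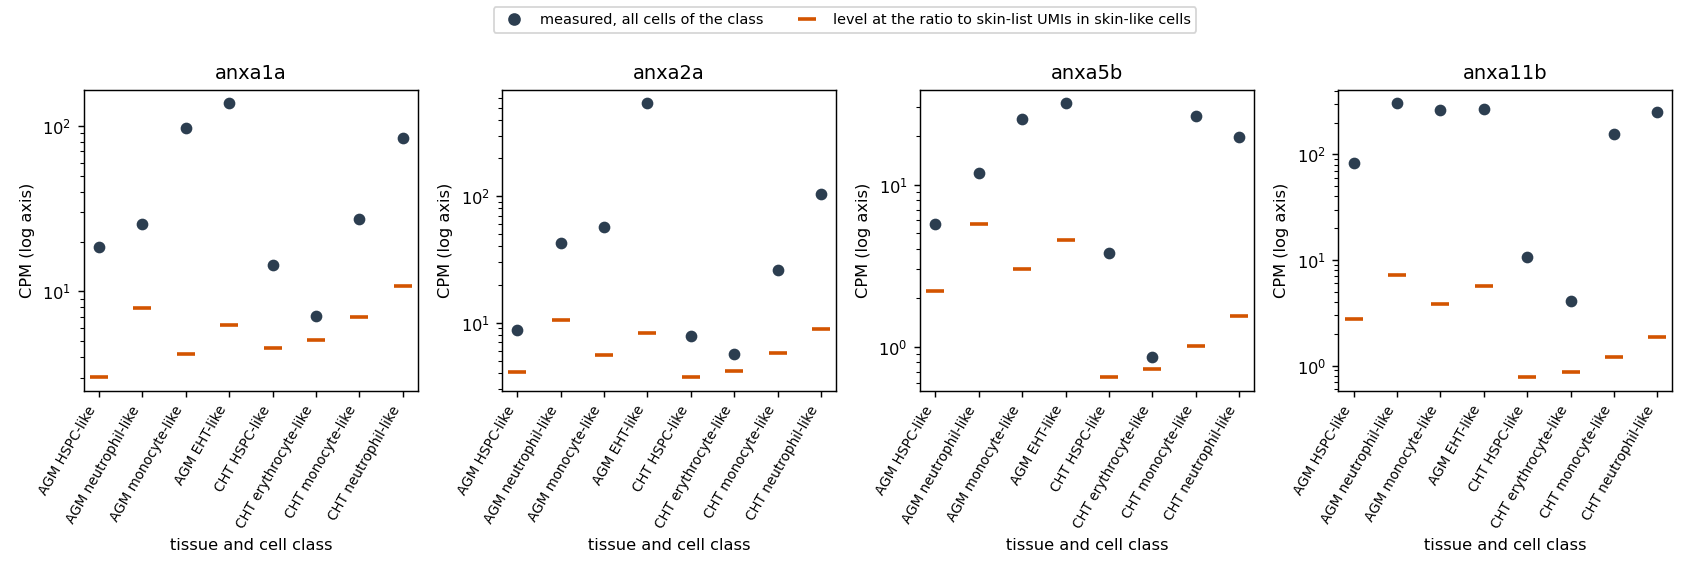
Level of the 4 annexin genes over all cells of a class (points) and the level given by the ratio to skin-list UMIs in skin-like cells of the same tissue (dashes), by tissue and cell class (CPM, log axis). anxa2a in EHT-like cells was at 543 CPM, against a dash at 8.33 CPM, while in CHT erythrocyte-like cells the dash reached 74.2% of the level measured.

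Treatment with LY294002, which blocks PI3K, was compared with the control next. In the AGM no listed gene passed by edgeR: 0.0481% of 10380 genes were called in HSPC-like cells, 0.0403% of 7447 in neutrophil-like, 0.107% of 6559 in monocyte-like and 2.14% of 4857 in EHT-like cells. The nearest was anxa5b in monocyte-like cells. It was at 35.2, 48.1, 57.4 and 50.6 CPM on L1 to L4 under LY294002, against 15.5, 5.34, 15.1 and 18.4 CPM on C1 to C4 in controls. These 8 plates did not overlap, but the fifth treated plate, L5, whose 16 monocyte-like cells were under the minimum of 20, held 0 UMIs of anxa5b among 230417 UMIs, below every control plate. The share of cells with an anxa5b UMI overlapped, at 14.9%, 20%, 12.7% and 8.45% on L1 to L4, against 10.4%, 3.57%, 11.1% and 14.1% on C1 to C4. On L1 to L4 the levels rested on 7, 11, 9 and 6 cells. The log2 fold change without L5 was 1.91 (SE 0.33, adjusted p = 0.07525, edgeR with a term for the sort period). It passed with DESeq2 (adjusted p = 0.00191), without a filter on low counts, with 3000 UMIs per cell and over the early plates alone, with adjusted p values between 0.0001563 and 0.3298 over all alternatives. With L5 let in by a minimum of 10 cells, an alternative chosen after seeing the data, it was 1.64 (adjusted p = 0.3298). In the fit without L5, the 8 skin-list genes tested had a median log2 fold change of 0.85, against -0.008 over all genes, and 0 were called. How far skin RNA entered the anxa5b values was not tested. Early treated plates were sorted on day 4 and early controls on day 1, and late treated plates on days 11 to 12 and late controls on days 10 to 11, so that here too treatment and sort day cannot be told apart within a period.

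anxa2a in monocyte-like cells was at 95.2, 103, 112 and 48.1 CPM on L1 to L4 under LY294002, against 39.6, 53.4, 25.6 and 36.8 CPM on C1 to C4 in controls. Only L4 fell within the control range, and the log2 fold change was 1.33 (SE 0.28, adjusted p = 0.1108, edgeR; 0.01201 with DESeq2 and 0.002433 to 0.2784 over the alternatives). Skin-list RNA in these cells was at 111 to 1220 CPM under LY294002 and 115 to 479 CPM in controls, and its part in the values was not tested. L5, which did not enter, held 43.4 CPM of anxa2a, within the control range.

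In EHT-like cells, compared on days 1 to 4 alone, anxa5b ran the other way. The sort days of these plates are those given for the early monocyte-like cells, and the same limit holds. It was at 24.8 CPM on L1 and 25.5 CPM on L2 under LY294002, against 68.5 CPM on C1 and 74.7 CPM on C2 in controls, a log2 fold change of -1.38 (SE 0.48, adjusted p = 0.1718, edgeR) that did not pass. The share of cells with an anxa5b UMI did not follow, at 8.82% and 11.8% under LY294002 against 8.33% and 10.4% in controls, and the control levels rested on 5 and 7 cells. X2, with 77 EHT-like cells of both treatments from the same period, was at 3.43 CPM, below both groups. anxa1a was at 89.2 CPM on L1 and 110.5 CPM on L2 under LY294002, against 101 CPM on C1 and 396 CPM on C2 in controls (log2 fold change -1.20, SE 0.53, adjusted p = 0.2936, edgeR). The lowest adjusted p of anxa1a over the alternatives was 0.0472, by edgeR without a filter on low counts. Without C2 the log2 fold change of anxa1a was 0.075, so that it turned in sign. anxa2a was at 755 CPM on L1 and 648 CPM on L2 under LY294002, against 182.6 CPM on C1 and 874 CPM on C2 in controls (log2 fold change 0.53, SE 0.50, adjusted p = 0.6776). The controls differed among themselves by more than the groups did. Without C2, anxa2a gave a log2 fold change of 2.04 with an adjusted p of 2.098e-05, with the lone control assumed to vary like the treated plates, and without C1 it gave -0.19.

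In HSPC-like cells anxa1a was at 40.7, 6.46, 66.3, 50.1 and 14.6 CPM on L1 to L5 under LY294002, against 3.89, 21.1, 11.3 and 12.1 CPM on C1 to C4 in controls, and the groups overlapped (log2 fold change 1.39, SE 0.57, adjusted p = 0.3986, edgeR). On the late plates alone it was 2.02, with an adjusted p of 0.04259 (0.008676 to 0.8834 over the alternatives), where erythrocyte-list RNA of HSPC-like cells was at 11410 to 26380 CPM on L3 to L5 and 3423 to 5014 CPM on C3 and C4. anxa11b gave a log2 fold change of -0.23 in HSPC-like cells (SE 0.20, adjusted p = 0.6756), and anxa2a and anxa5b were too low there for a test. In neutrophil-like cells the 4 genes lay between -0.09 and 0.99, the last for anxa5b (SE 0.72, adjusted p = 0.7195), and the groups overlapped for each. anxa1a in monocyte-like cells was at 132, 176, 72.7 and 88.6 CPM on L1 to L4 under LY294002, against 143, 158, 47.7 and 59.9 CPM on C1 to C4 in controls (log2 fold change 0.38, SE 0.19, adjusted p = 0.4726). Within each treatment it was higher on the plates of days 1 to 4 than on those of days 10 to 12.

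**Figure D3:**
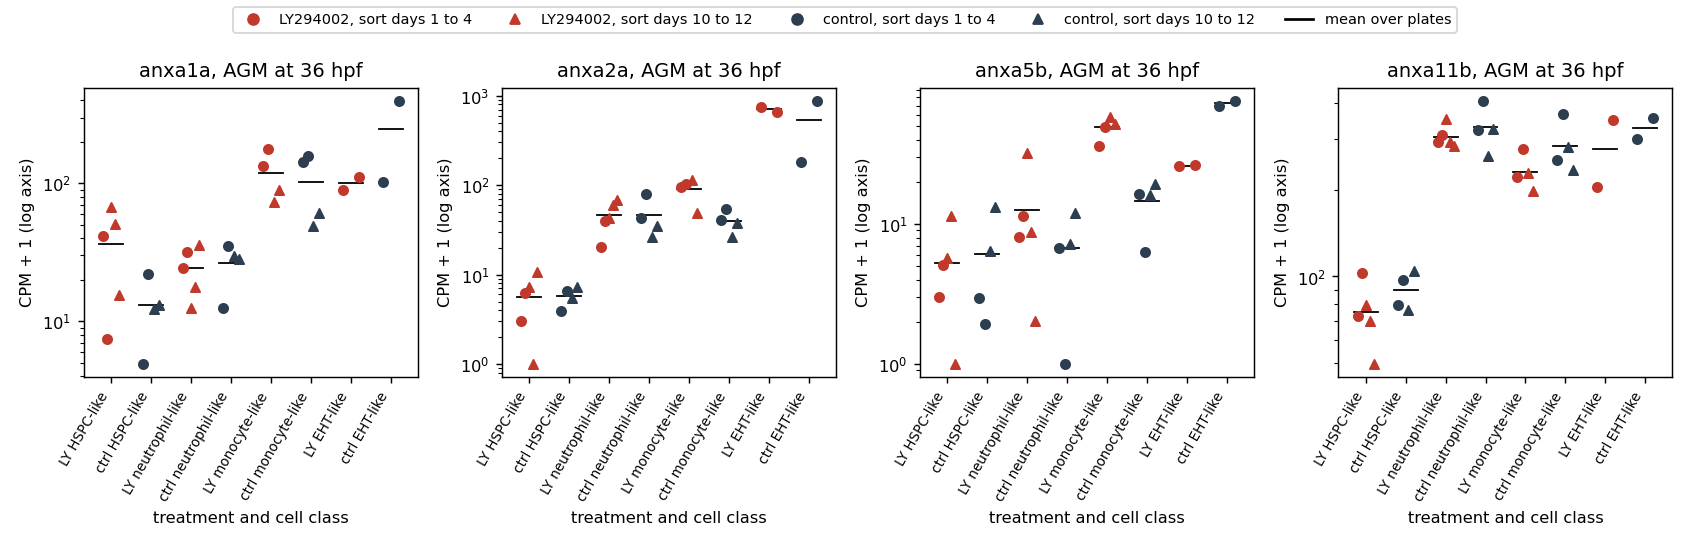
Levels of the 4 annexin genes in AGM cell classes at 36 hpf under LY294002 and in controls (CPM + 1, log axis); points are plates of at least 20 cells, circles sorted on days 1 to 4 and triangles on days 10 to 12, with means over plates as lines. anxa5b in monocyte-like cells was at 35.2 to 57.4 CPM on 4 plates under LY294002 and 5.34 to 18.4 CPM in controls, and L5, under the minimum with 0 CPM, is not drawn there.

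In the CHT at 5 dpf, anxa1a in HSPC-like cells was at 36.0 CPM on V1 and 1.40 CPM on V2 under LY294002, against 18.3 CPM on W1 and 5.78 CPM on W2 in controls (log2 fold change 0.81, SE 0.87, adjusted p = 0.7697, edgeR). The plates overlapped, and 0.12% of 5826 genes were called. In erythrocyte-like cells, where 0.116% of 6925 genes were called, no listed gene was high enough for a test. There anxa1a was at 8.31 CPM on V1 and 8.31 CPM on V2 under LY294002, against 6.23 CPM on W1 and 7.08 CPM on W2 in controls, without overlap. anxa2a was at 0 CPM on V1 and 5.54 CPM on V2 under LY294002, against 6.85 CPM on W1 and 6.49 CPM on W2 in controls, also without overlap, and the 4 genes rested on 1 to 22 UMIs per group. The other listed genes of HSPC-like cells were also too low for a test, with 5 to 16 UMIs per group, and their plates overlapped.

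No CHT cluster was named myeloid-like. The monocyte-like cells, a name that only 54 CHT cells bore with 7 clusters, were compared in its place, a comparison chosen after seeing the data. anxa5b was at 28.3 CPM on V1 and 29.2 CPM on V2 under LY294002, against 12.9 CPM on W1 and 35.1 CPM on W2 in controls, so that the plates overlapped (log2 fold change 0.33, SE 0.63, adjusted p = 0.9895, edgeR). anxa2a was at 30.8 CPM on V1 and 31.7 CPM on V2 under LY294002, against 22.6 CPM on W1 and 14.0 CPM on W2 in controls, without overlap, on 25 UMIs against 11 (log2 fold change 0.81, SE 0.57, adjusted p = 0.8957). anxa11b gave a log2 fold change of 0.48 (SE 0.32, adjusted p = 0.8714), and anxa1a, at 19 UMIs in each group, was too low for a test. None of 3723 genes (0%) was called by edgeR, where 235 had an unadjusted p under 0.05, and DESeq2 called 6.

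Between the stages, anxa11b differed in control HSPC-like cells. It was at 11.3 CPM on W1 and 8.09 CPM on W2 in the CHT at 5 dpf, against 78.7, 96.4, 75.2 and 103.7 CPM on C1 to C4 in the AGM at 36 hpf. It fell by 2.86 on the log2 scale (SE 0.28, adjusted p = 0.0002057, edgeR), between -3.37 and -2.78 over the alternatives. Of the 2 listed genes tested 1 passed, where 28.2% of 9804 genes did, and anxa1a stood at 0.26 (SE 0.65, adjusted p = 0.8037). anxa2a, with 9 UMIs at 5 dpf against 36 at 36 hpf, and anxa5b, with 6 against 38, were too low for a test, and their plates overlapped. Stage, tissue and sort day cannot be told apart here, and the classes were set in separate clusterings.

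In control neutrophil-like cells, no listed gene passed between the stages, where 4.08% of 5977 genes did. anxa2a was at 85.3 CPM on W1 and 132.6 CPM on W2 at 5 dpf, against 42.4, 78.5, 25.5 and 33.5 CPM on C1 to C4 at 36 hpf, without overlap (log2 fold change 1.40, SE 0.46, adjusted p = 0.1163, edgeR). anxa5b was too low for a test, at 14.2 CPM on W1 and 23.1 CPM on W2 at 5 dpf, against 5.79, 0, 6.19 and 11.0 CPM on C1 to C4 at 36 hpf, without overlap and on 6 UMIs against 29. anxa1a, also without overlap, gave 1.13 (SE 0.50, adjusted p = 0.2184) and anxa11b -0.26 (SE 0.26, adjusted p = 0.6056). W1 and W2 held only 24 and 22 neutrophil-like cells. The 8 skin-list genes tested in this fit had a median log2 fold change of 2.33, against -0.09 over all genes, and 2 were called higher. Summed skin-list RNA overlapped, at 986 to 1152 CPM at 5 dpf and 614 to 1163 CPM at 36 hpf. The part of skin RNA in these values was not tested.

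Of the other 9 annexin genes in the files, 5 had a mean of at least 20 CPM in some class. anxa4 was highest in AGM monocyte-like cells, with a mean of 570 CPM, and anxa3b was there at 407 CPM. anxa13, an annexin of epithelia in mammals, was at 428 CPM in AGM EHT-like cells and at 30.4 CPM in AGM skin-like cells. The 49 skin-like cells of the CHT held 35.6 CPM of it, and the other classes had means of at most 7.63 CPM. anxa11a was present in every class, at a mean of 189 CPM in CHT erythrocyte-like cells and 181 CPM in AGM neutrophil-like cells, 135 CPM in EHT-like and 126 CPM in monocyte-like cells. anxa13l was at 45.9 CPM in CHT erythrocyte-like cells. anxa2b, anxa3a, anxa5a and anxa6 had means over plates below 20 CPM in every class, although anxa3a reached 41.1 CPM on an AGM skin-like plate and anxa6 reached 26.95 CPM on an AGM HSPC-like plate. These 4 genes rested on 20, 127, 23 and 112 UMIs over all cells.

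Between 2 and 4 of these 9 genes were high enough for a test in each comparison, and none passed under LY294002 by edgeR. Between the stages, 1 of 4 passed in control HSPC-like cells, a share close to the 28.2% of all genes called there, so that the count says nothing particular of these genes. It was anxa4, which averaged 45.0 ± 8.11 CPM at 5 dpf (SD, n = 2) and 114.7 ± 13.1 CPM at 36 hpf (SD, n = 4), without overlap, and fell by 1.01 on the log2 scale (SE 0.20, adjusted p = 0.006352, edgeR).

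**Figure D4:**
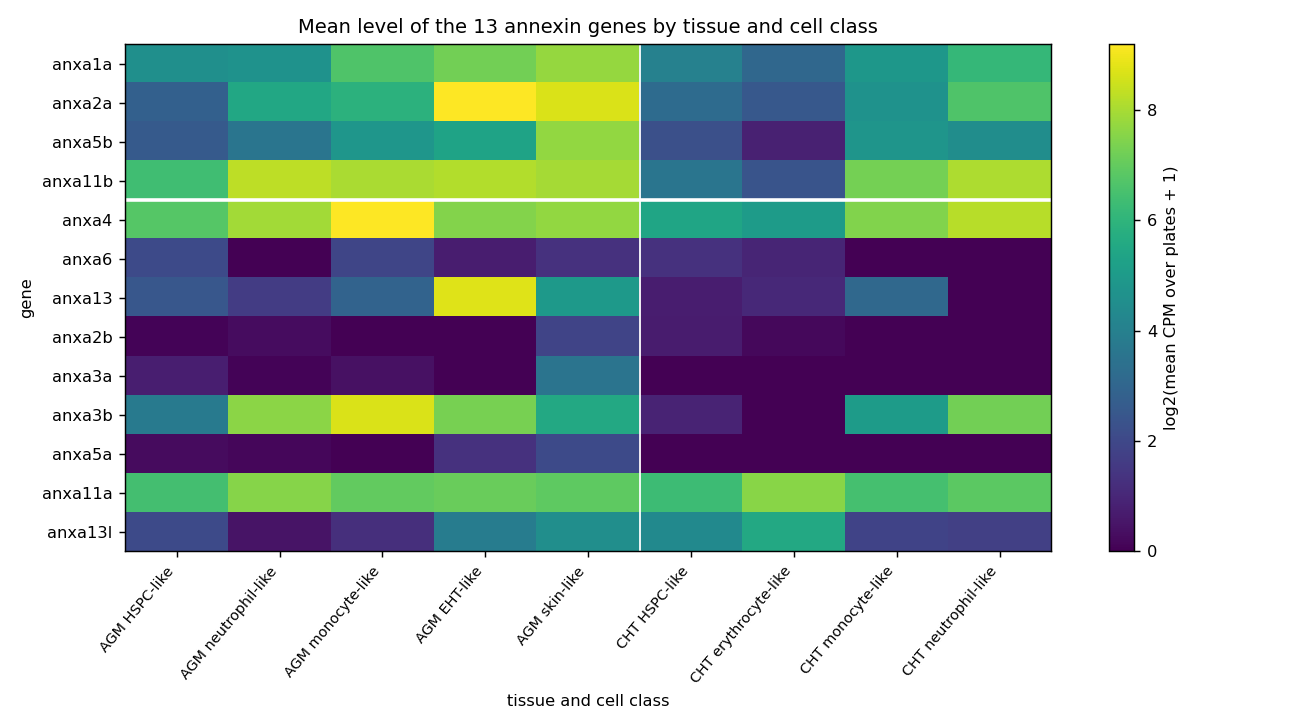
Mean level over plates of all 13 annexin genes by tissue and cell class, as log2(mean CPM + 1), with the 4 listed genes above the white line. anxa13 was at 428 CPM in EHT-like cells of the AGM, and the means of anxa2b, anxa3a, anxa5a and anxa6 were below 20 CPM in every class.

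Partners of annexins were read from fixed lists. Of the 10 S100 genes, 6 reached 20 CPM in some class. s100a10b, the S100 partner of annexin A2 in mammals, was at a mean of 398 CPM in EHT-like cells of the AGM and as high in skin-like cells, with 206.5 to 764 CPM over 5 plates, as anxa2a was high in both. It was at 5.96 CPM in HSPC-like cells, 72.5 CPM in monocyte-like cells and 6.86 CPM in neutrophil-like cells. anxa2a was at a mean of 45.1 CPM in the neutrophil-like cells, so that the 2 genes did not run together there. s100v2 was at 215 CPM in skin-like and 47.7 CPM in EHT-like cells of the AGM. ahnak, a large scaffold that binds the annexin A2 and S100A10 pair in mammals, was at 769 CPM in EHT-like and 448 CPM in skin-like cells. Its means were 109 CPM in HSPC-like, 104 CPM in monocyte-like and 11.2 CPM in neutrophil-like cells of the AGM. Between HSPC-like and neutrophil-like cells its order was the reverse of that of anxa2a. Under LY294002, none of the S100 or partner genes tested passed by edgeR, and the nearest, ahnak in EHT-like cells, had a log2 fold change of 1.00 (SE 0.24, adjusted p = 0.05325). Between the stages, the calcium sensors pdcd6 (ALG-2), pef1 and sri were lower in control HSPC-like cells at 5 dpf and were called by edgeR, 3 of 4 partner genes tested, where 28.2% of all genes were called. ahnak, the other one, gave -0.41 (SE 0.28, adjusted p = 0.3087). pef1 fell by 0.99 and sri fell by 3.11 on the log2 scale, and pdcd6 was left with 1 UMI at 5 dpf.

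Over the 44 AGM sums of a class on a plate, the genes most like each listed gene were set by Pearson r of log2(CPM + 1) among 8215 genes. anxa1a was most like s100a10b (r = 0.83), rab11a (0.79) and yes1 (0.77). anxa2a was most like cnn2 (0.91), sept9a (0.87) and flna (0.86), and anxa11b most like si:dkey-16l2.16 (0.89), timp2b (0.88) and cyb5r3 (0.88). anxa5b was most like ENSDARG00000074020 (0.85), TCIM (0.83) and eif1b (0.82). Among the listed genes, r lay between 0.41 and 0.70. The sums share libraries and depth, and the values are a description with no test.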

How the data were processed

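Per the labels and methods, the authors sorted single cells into 384-well plates, made CEL-Seq2 libraries, mapped the reads to the Zv9 transcriptome (BWA is named in the submitters' processing notes) and deposited estimated counts, that is UMIs per gene in every well after a correction for chance UMI collisions. The deposited counts were rounded before testing. Spike-in rows were left out of all totals. Cells of at least 1500 UMIs were clustered in 2 sets (AGM; CHT) by k-medoids (5 clusters) on 1 minus Pearson r of log2 scaled counts over at most 800 variable genes, without annexin or mitochondrial genes. This distance replaced one on unlogged counts, kept as an alternative, which merged AGM red cells with skin, so the choice was made with the data seen. Doublets were not called. Counts were summed per plate and class (at least 20 cells) and tested with edgeR 4.0.16 (R 4.3.3, quasi-likelihood, TMM, low-count filter), with Benjamini-Hochberg adjustment at 0.05. The LY294002 fits of AGM HSPC-like, neutrophil-like and monocyte-like cells had a sort period term. The EHT-like, CHT and stage fits had none. DESeq2 1.42.0 was an alternative. The scripts were tested on simulated counts. Listed genes too low for a test are given by their UMIs or levels; partner genes and likeness followed fixed rules. The members and lists were chosen with earlier results of these data known. Plates with both treatments entered levels only, and 4 plates and a comparison that rests on them are not reported here. No sequences are shown.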

Additional observations from a re-analysis of the deposited data

Results flagged for a closer look

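The log2 fold changes of anxa5b under LY294002 over controls had opposite signs in cell types of the AGM, at 1.91 in monocyte-like cells, where the 4 treated plates of at least 20 cells were above all 4 control plates and the fifth, L5, with 16 cells, was at 0 CPM, and -1.38 in EHT-like cells of days 1 to 4, where both treated plates were below both control plates, with 5 and 7 control cells holding the gene. With L5 let in, the first was 1.64. On plates of at least 20 cells, the share of cells with an anxa5b UMI overlapped between treatments in both cell types. Neither log2 fold change passed in its own fit, and the difference between the cell types was not tested. In 24 groups of 4 or 5 plates examined for a plate far from the others, 0 such plates were found, where chance gives about 1 in 20 groups.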

How the results depend on the processing

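In HSPC-like cells, anxa2a and anxa5b were too low for a test. They rested on 19 to 38 UMIs per treatment in the AGM and 5 to 14 in the CHT. The distance on unlogged values, the fits within a sort period, the minimum of 10 cells and the CHT monocyte-like comparison were chosen after seeing the data. No paired analysis was possible because the labels give the groups no shared replicate numbers. Mean levels of the listed genes by class stayed within their SD over plates 162 times and moved further 14 times under other settings. Of these 14, 6 came with cells thinned to 1500 UMIs, 5 with unlogged values and 3 with 7 clusters. With settings other than a plate left out, log2 fold changes of the listed genes kept direction and side of the threshold 167 times, passed where they had not 10 times, and turned in sign 7 times. The turned log2 fold changes, none past the threshold, were anxa11b 0.0332 (AGM HSPC-like, early plates alone), anxa1a 0.28 and anxa2a -0.96 (AGM neutrophil-like, early alone), anxa11b 0.11 (AGM neutrophil-like, late alone), anxa5b -0.11 (CHT monocyte-like, unlogged values), and anxa1a between the stages in HSPC-like cells, -0.43 with 7 clusters and -0.46 with unlogged values.

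Counts of called genes moved as follows. Without a filter on low counts, 260 genes were called for LY294002 in AGM HSPC-like, 181 in neutrophil-like, 201 in monocyte-like, 260 in EHT-like, 111 in CHT HSPC-like, 382 in CHT erythrocyte-like and 123 in CHT monocyte-like cells, and 564 between the stages in neutrophil-like cells. DESeq2 called 76, 43, 51, 12, 33 and 6 (LY294002; AGM HSPC-like, neutrophil-like, monocyte-like, CHT HSPC-like, erythrocyte-like, monocyte-like). With 7 clusters the counts were 2, 10, 14 and 45 (LY294002; AGM HSPC-like, AGM neutrophil-like, CHT HSPC-like, CHT erythrocyte-like). With 3000 UMIs 7 were called (AGM neutrophil-like), with DESeq2 size factors 5 (AGM neutrophil-like), and with unlogged values 84 (CHT erythrocyte-like). Without the sort period term 0, 1 and 2 genes were called in AGM HSPC-like, neutrophil-like and monocyte-like cells, over the early plates alone 0, 208 and 396, and over the late plates alone 266 and 24 in HSPC-like and monocyte-like cells. The cause was not tested.

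With each plate left out in turn, and a lone plate assumed to vary like the others, the counts ranged between 0 and 463 (LY294002, AGM HSPC-like), 1 and 18 (AGM neutrophil-like), 4 and 14 (AGM monocyte-like), 21 and 219 (AGM EHT-like), 35 and 92 (CHT HSPC-like), 0 and 92 (CHT erythrocyte-like), 39 and 104 (CHT monocyte-like, against 0 with all plates), 1096 and 3059 (stage HSPC-like) and 8 and 242 (stage neutrophil-like). The lowest stage counts were without W2, with 1221 in HSPC-like and 12 in neutrophil-like cells without W1, and the 463 in AGM HSPC-like cells was without C1. Log2 fold changes that turned in sign ranged between -0.094 and 0.079 (anxa11b), -0.33 and 0.10 (anxa1a) and -0.21 and 0.52 (anxa2a) in AGM neutrophil-like cells, -0.44 and 0.25 (anxa11b), -1.86 and 0.075 (anxa1a) and -0.19 and 2.04 (anxa2a) in AGM EHT-like cells, -2.70 and 1.78 (anxa1a, CHT HSPC-like, LY294002), -0.26 and 1.22 (anxa5b, CHT monocyte-like) and -0.79 and 0.75 (anxa1a, stage HSPC-like).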
